A study of Homo sapiens with 4 samples.

Results

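The histone lysine demethylase genes KDM7A, KDM4C, KDM5A and KDM5B were examined in HCT116, a human cell line established from a colorectal carcinoma, after transfection of a short hairpin RNA (shRNA) against PCAF. They were taken from the authors' deposited table of changed genes by their symbols, as the lines beginning with KDM, JHDM, JMJD or JARID. The rule found 4 lines of 852, on 4 of the 759 probe sets that the table names and of the 33297 on each array, and all 4 are listed as up. KDM7A stands in the table under its older symbol Jhdm1d. The probe set of KDM5B (7923453) is also listed under LOC100133760, a symbol that matched no current RefSeq gene, so its signal cannot be assigned to KDM5B alone. The other members have a probe set of their own (8143341 for KDM7A, 8154333 for KDM4C and 7960221 for KDM5A).

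The cells were growing asynchronously, and total RNA was measured on 4 single-colour Affymetrix arrays. The shControl group comprised 2 arrays of cells given a control shRNA and carries the genotype label wild-type, and the shPCAF group comprised 2 arrays of cells given the PCAF shRNA and carries the label PCAF knock-down. PCAF (current symbol KAT2B) is a lysine acetyltransferase, and the series title ties the comparison to target genes of the cyclin-dependent kinase inhibitor p27. Separate cultures for the replicates are not mentioned in the labels, nor is it said whether the transfected cells were a clone or a pool. Errors and p-values therefore cover the spread among these 4 arrays alone, and that spread may be technical. No line of the table names KAT2B, so the depth of the knockdown was not analysed here.

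Lysine demethylases of the Jumonji C (JmjC) class are dioxygenases that use iron, molecular oxygen and 2-oxoglutarate to oxidise methyl groups on lysine side chains, after which the methyl group is released as formaldehyde. Their need for oxygen and 2-oxoglutarate links them to the metabolic state of the cell. Members differ in the lysine they act on. KDM7A removes methyl groups from H3K9 and H3K27, marks of repressed chromatin. KDM4C acts on H3K9 and H3K36. KDM5A and KDM5B are paralogues that act on methylated H3K4, a mark of active promoters, and KDM5A was first described as a protein that binds the retinoblastoma protein.

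Since the 4 genes were listed as up together, the 250 bases before the start of each in RefSeq (GRCh38.p14) were read and searched on both strands for ACGTG and GCGTG, the forms of the hypoxia response core, for TGATGNA, part of the composite element of ATF4, and for TGACGT, the core of the cyclic AMP response element. All 4 genes matched a promoter entry by symbol. Each sequence is given 5′ to 3′ on the strand of its gene, with capitals for the motif matches. The KDM7A window is chr7:140176984-140177233 on the minus strand.
KDM7A: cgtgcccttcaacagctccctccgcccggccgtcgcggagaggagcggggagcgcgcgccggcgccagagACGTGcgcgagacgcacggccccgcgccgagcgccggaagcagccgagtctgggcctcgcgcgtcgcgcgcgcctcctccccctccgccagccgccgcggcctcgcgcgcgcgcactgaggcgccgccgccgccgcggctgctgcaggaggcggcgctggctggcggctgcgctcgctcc
The KDM4C window is chr9:6757723-6757972 on the plus strand, and lies within the annotated span of KDM4C itself.
KDM4C: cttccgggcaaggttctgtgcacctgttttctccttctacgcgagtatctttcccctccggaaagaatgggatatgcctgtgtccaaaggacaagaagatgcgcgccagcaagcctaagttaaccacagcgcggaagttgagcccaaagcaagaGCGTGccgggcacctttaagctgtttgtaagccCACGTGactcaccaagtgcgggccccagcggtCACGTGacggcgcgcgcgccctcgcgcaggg
The KDM5A window is chr12:389321-389570 on the minus strand, and overlaps the annotated span of the neighbouring gene CCDC77.
KDM5A: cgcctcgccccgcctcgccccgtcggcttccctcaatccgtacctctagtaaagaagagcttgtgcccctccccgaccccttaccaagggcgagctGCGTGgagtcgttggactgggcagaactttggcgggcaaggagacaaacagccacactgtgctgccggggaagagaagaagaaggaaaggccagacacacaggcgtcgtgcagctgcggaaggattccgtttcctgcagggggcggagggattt
The KDM5B window is chr1:202808422-202808671 on the minus strand.
KDM5B: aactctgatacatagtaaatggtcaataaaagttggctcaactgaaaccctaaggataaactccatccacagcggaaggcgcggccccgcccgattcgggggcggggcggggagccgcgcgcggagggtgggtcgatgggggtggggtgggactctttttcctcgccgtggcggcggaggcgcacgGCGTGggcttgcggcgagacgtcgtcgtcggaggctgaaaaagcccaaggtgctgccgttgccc

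Each of the 4 windows held at least 1 match to a hypoxia response core, as did 43.2% of all promoter windows. Both cores contain a CpG, and among windows with at least the 18 CpG of KDM5A, the lowest of the 4, 64.0% held one. The KDM7A window had 1 ACGTG, at 180 to 176 bases before the start. In the KDM4C window ACGTG occurred at 2 places, each read on both strands because the 6 letters in capitals are a palindrome, and GCGTG occurred once, at 96 to 92 bases before the start. The KDM5A and KDM5B windows each held 1 GCGTG and no ACGTG. Both cores are common: ACGTG was found in 18.5% and GCGTG in 32.2% of all 35116 promoter windows of the same length. TGATGNA, found in 8.41% of all windows, and TGACGT, found in 7.10%, had no match in these 4 windows. No motif match overlapped a match to a different motif. A match describes letters only, and no binding was measured.

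**Figure D1:**
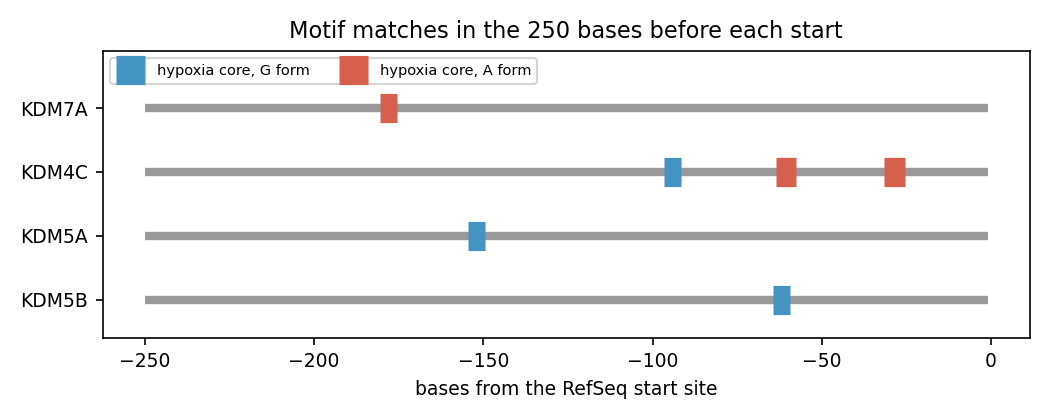
Positions of the motif matches (coloured blocks, to scale) in the 250 bases before the RefSeq start of each gene (grey bars), with the distance from the start in bases on the horizontal axis. ACGTG is drawn as the A form and GCGTG as the G form of the hypoxia core, and KDM4C has the most matches, at 3 places.

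The windows also differed in base composition. That of KDM7A was 81.6% G and C and held 50 CpG dinucleotides, more than 99.9% of all promoter windows, whose median was 11. The KDM5B window held 27 CpG, that of KDM4C 21 and that of KDM5A 18, each above the median.

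KDM7A differed most of the 4. In shControl the log2 probe set signals were 6.95 and 6.96, and in shPCAF they were 9.11 and 8.92. Both shPCAF arrays were thus above both shControl arrays, as for 23.1% of all probe sets, and the groups did not overlap. The mean went from 6.95 ± 0.01 to 9.01 ± 0.14 (SD, n = 2 each), a log2 difference of 2.06 ± 0.09 (moderated SE from limma) or 4.17-fold. Over the 4 pairs of a shPCAF with a shControl array the fold ran from 3.89 to 4.48. The shControl signal lay just below the array medians of 7.08 and 7.10. Whether it was above background was not measured, so the fold may understate the change. In bulk RNA, more cells with the transcript and more transcript per cell cannot be told apart, here or for the genes below.

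KDM4C differed less. In shControl the log2 signals were 8.36 and 8.25, and in shPCAF 9.11 and 9.10, without overlap of the groups. The log2 difference was 0.80 ± 0.07 (moderated SE), or 1.74-fold, from means of 8.31 ± 0.08 and 9.11 ± 0.01 (SD, n = 2 each). The array pairs gave folds from 1.67 to 1.82.

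The probe sets listed for the H3K4 demethylase paralogues were both higher in the shPCAF arrays. For KDM5A the log2 signals were 8.34 and 8.42 in shControl and 9.06 and 9.14 in shPCAF. The groups did not overlap, and the log2 difference was 0.72 ± 0.08 (moderated SE), or 1.64-fold, with array pairs from 1.55- to 1.74-fold. The probe set of KDM5B and LOC100133760 gave log2 signals of 9.02 and 9.03 in shControl and 10.52 and 10.46 in shPCAF, again without overlap. Its log2 difference was 1.47 ± 0.07 (moderated SE), or 2.76-fold, with array pairs from 2.70- to 2.83-fold. The smallest pair difference of this probe set, 1.43 on the log2 scale, was above the largest of KDM5A, 0.80. Since the rule took the members from this same contrast, these differences describe them, and no p-value is given in their support.

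**Figure D2:**
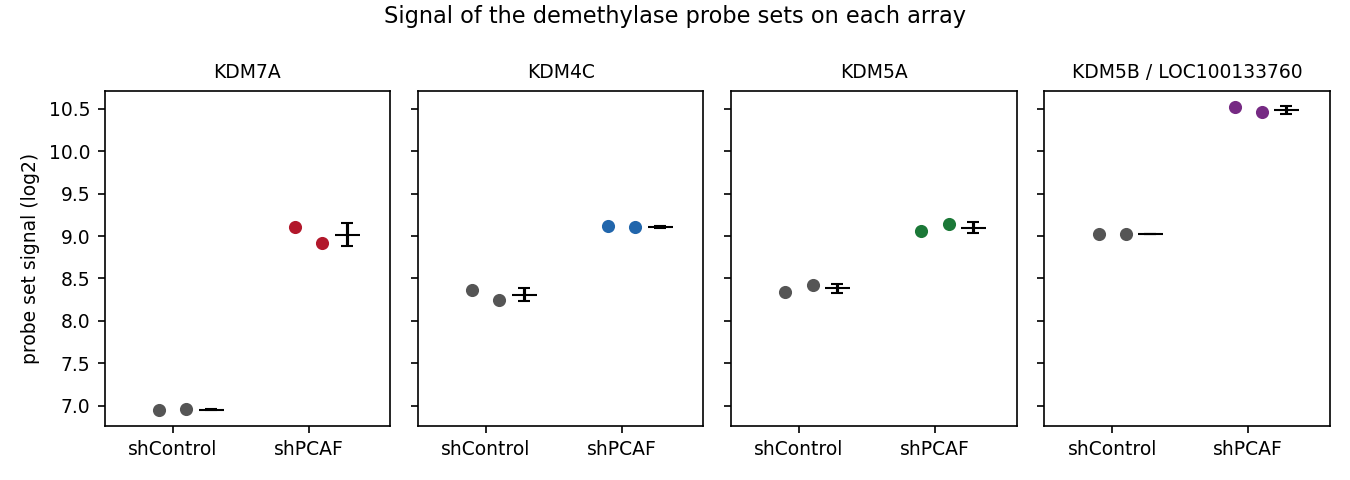
Log2 probe set signal (vertical axis) of each gene on each of the 4 arrays (points), with the group mean and SD (n = 2) as bars to the right of the points. In every panel both shPCAF arrays are above both shControl arrays, as for 23.1% of all probe sets, and the members were chosen on this contrast. The separation is widest for KDM7A (6.95 against 9.01), and signals of different probe sets are not compared.

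The order of the differences was KDM7A, then the KDM5B probe set, then KDM4C and KDM5A. The array pairs of KDM7A (log2 difference 1.96 to 2.16) did not overlap those of KDM5B (1.43 to 1.50), and those of KDM5B did not overlap the others. KDM4C (0.74 to 0.86) and KDM5A (0.63 to 0.80) overlapped, so the order of these 2 is not set by the data. Without shControl replicate 2, KDM5A was at 0.76 and KDM4C at 0.75. All the pair ranges combine 2 arrays per group, so they describe these arrays alone and are not intervals of error. The spread between replicates was not of one kind. The shPCAF arrays of KDM7A lay 0.19 apart, against a median gap of 0.10 over all probe sets, and those of KDM4C lay 0.01 apart. In the shControl arrays the gap was 0.01 for KDM7A and 0.11 for KDM4C, against a median of 0.09 over all probe sets.

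Against the whole array, 29 of the 33297 probe sets had a larger upward difference than KDM7A, 103 a larger one than that of KDM5B, 678 than KDM4C and 906 than KDM5A. Among the 522 probe sets that the authors' table lists as up, the ranks by log2 difference were 22, 76, 384 and 496. The median log2 difference was 1.13 over the 4 demethylase probe sets, 0.93 over the 522 and -0.05 over all probe sets. At an adjusted p below 0.05 (limma, Benjamini-Hochberg), 4294 probe sets passed, which is 12.9% of those tested. Of these, 2346 were higher in shPCAF (7.05% of those tested) and 1948 lower (5.85%). Higher calls were 54.6% of all calls on the deposited values and 68.0% with the array medians set equal. The share called was larger without the 4201 lowest identifiers (5319 of 29096) and without the dimmest 30% of probe sets (5004 of 23308). All 4 demethylase probe sets were among the higher calls, but they were selected from a table made on this contrast. The count is a description, and nothing is read from it. Likewise the shPCAF arrays lay wholly above the shControl arrays for 4 of 4 demethylase probe sets and for 23.1% of all. When either shControl array was left out, no probe set passed, demethylases included.

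**Figure D3:**
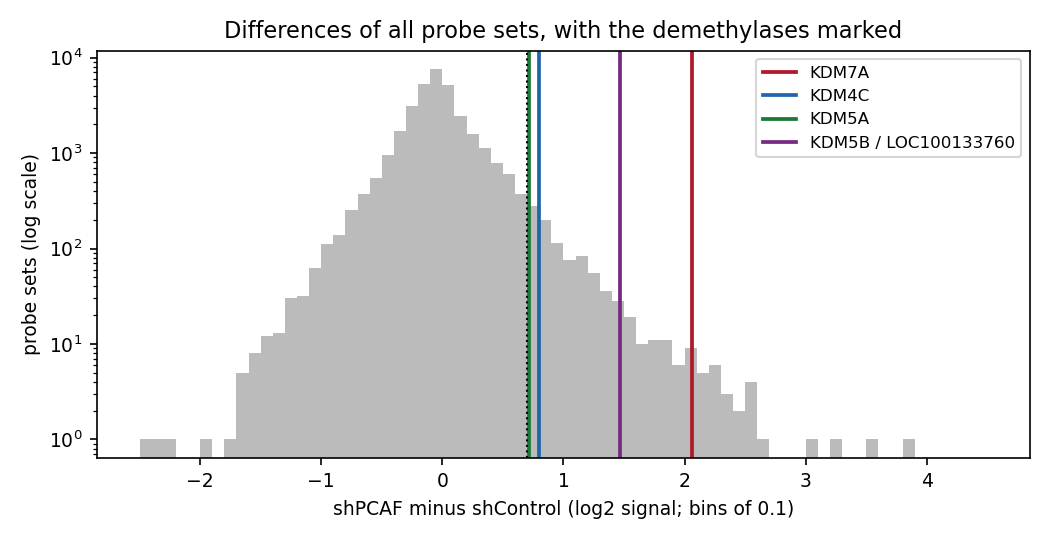
Number of probe sets (vertical log axis) by log2 difference of shPCAF minus shControl in bins of 0.1 (horizontal axis), for all 33297 probe sets, with the demethylases as coloured lines and 0.7 as a dotted line. KDM7A at 2.06 lies far out among the rises, and KDM5A at 0.72 lies next to the dotted line.

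The values that chose the members are those of the authors' deposited table. In the column headed fold change, the authors' deposited table gives 4.41 for KDM7A, 3.15 for KDM5B, 1.71 for KDM4C and 1.54 for KDM5A. In the authors' deposited table these values are 2.14 to 2.15 times the log2 difference, and are not folds. For KDM7A the fold of 4.17 is thus below the value in the authors' deposited table, and for KDM4C the fold of 1.74 is above it. The authors' deposited table gives p-values, with no test named, of 0.0289 for KDM7A, 0.0422 for KDM4C and 0.00714 for KDM5A. Whether these were adjusted is not known here. The probe set of KDM5B has a p of 0.0132 on the KDM5B line of the authors' deposited table and of 0.0141 on the LOC100133760 line, although both lines rest on the same 4 signals. The smallest absolute log2 difference of any probe set in the table was 0.70. KDM5A at 0.717 was the member nearest to that edge, with 26 of the 522 rises below it, and the highest value just outside, over all probe sets, was 0.6998. KDM5A was below 0.70 after quantile normalization (0.670), without shControl replicate 1 (0.676) and without shPCAF replicate 2 (0.673). It was higher than 0.717 after median centring (0.779) and without shControl replicate 2 (0.758) or shPCAF replicate 1 (0.761). The edge itself was read on the deposited values.

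Other genes of chromatin regulation were looked up in the table, which names 2.28% of all probe sets, so that few members of any list can be found there. Of 24 lysine demethylase genes listed by current and older symbols, the 4 above were named, and the others were not analysed here. None of 28 histone lysine methyltransferase genes, 8 other JmjC protein genes, 28 acetyltransferase and deacetylase genes or 10 DNA methylation genes was named in the table. Of 36 Polycomb and COMPASS genes, PHF19 alone was named, a Polycomb-like protein of the repressive complex that methylates H3K27. Its log2 signals were 10.07 and 10.11 in shControl and 9.04 and 9.22 in shPCAF, which is 1.95-fold lower. Of 29 chromatin remodeller genes, CHD2 was 1.82-fold higher and SMARCB1, a core subunit of the SWI/SNF complexes, was 1.63-fold lower. A gene not named in the table may have differed as much, since 958 probe sets were higher by at least 0.7 on the log2 scale (2.88% of all) and 522 of them are in the table.

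Of 23 hypoxia-inducible genes listed, 6 were named in the table, all 6 as up, with a median log2 difference of 1.21, and the others were not analysed here. The table lists 68.8% of its probe sets as up, and nothing is read from the count. DDIT4, an inhibitor of mTORC1 signalling, was 5.67-fold higher. Its log2 signals were 8.38 and 8.86 in shControl and 11.21 and 11.04 in shPCAF. NDRG1 was 3.22-fold higher, PDK1, a kinase that inhibits pyruvate dehydrogenase, 2.42-fold higher, and VEGFA, the vascular growth factor, 2.22-fold higher. Of 24 other 2-oxoglutarate oxygenase genes, P4HA1, a subunit of collagen prolyl hydroxylase that is also in the hypoxia list, was the one in the table and was 1.88-fold higher. These genes come from a table chosen on the same arrays, so their counts are a description too.

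**Figure D4:**
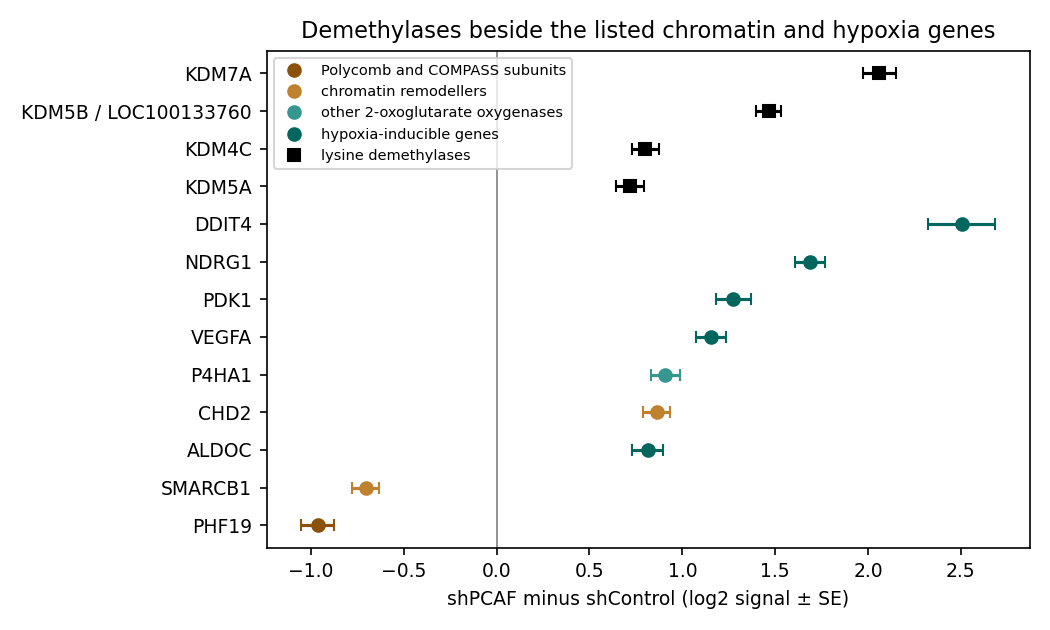
Log2 difference of shPCAF minus shControl with its moderated SE (horizontal axis) for the demethylases (black squares) and the genes of the chromatin and oxygen lists named in the table (circles, P4HA1 belonging to both oxygen lists). PHF19 and SMARCB1 are below 0, and the other genes lie between 0.72 (KDM5A) and 2.50 (DDIT4).

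The profiles nearest to each demethylase were found among the other 710 probe sets with a single symbol in the table, by the root mean square distance over the 4 arrays after each probe set's mean was subtracted. For KDM7A these were PTPDC1 at a distance of 0.02, STC2, which encodes the secreted glycoprotein stanniocalcin-2, at 0.05 and the pseudokinase gene TRIB3 at 0.06, with log2 differences of 2.06, 2.06 and 1.94. KDM4C was nearest to ARFGEF3 (listed as KIAA1244), TBC1D12 and PLA2G7, which encodes a phospholipase that inactivates platelet-activating factor. Their log2 differences were 0.81, 0.80 and 0.81. KDM5A was nearest to YPEL2, POLI, the DNA polymerase iota gene, and FAM167A, at 0.74, 0.72 and 0.73. The points of each profile are 4 arrays in 2 groups, and all these probe sets were selected on the same contrast.

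Arrays of one group correlated at 0.997 (shControl) and 0.9955 (shPCAF) over probe sets, and arrays of different groups at 0.987 to 0.989 (Pearson). Of 10 epithelial and colon markers, CDH1 (E-cadherin) was named in the table, at 2.14-fold higher. Of 8 fibroblast markers, ACTA2 was 1.82-fold higher and TAGLN 1.66-fold lower, and of 6 lymphocyte markers CD22 was 2.91-fold higher. None of the 5 macrophage or 5 endothelial markers was named. The part of these markers in the demethylase differences was not tested.

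The demethylase differences were recomputed under other processing settings. They stayed positive in all 44 recomputed values, from 0.67 for KDM5A to 2.16 for KDM7A on the log2 scale. For most settings this sign was fixed in advance. Leaving out probe sets, the block, the weights and the trend do not change these estimates. Leaving out an array could not reverse a sign, since every array pair already had a positive difference.

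**Figure D5:**
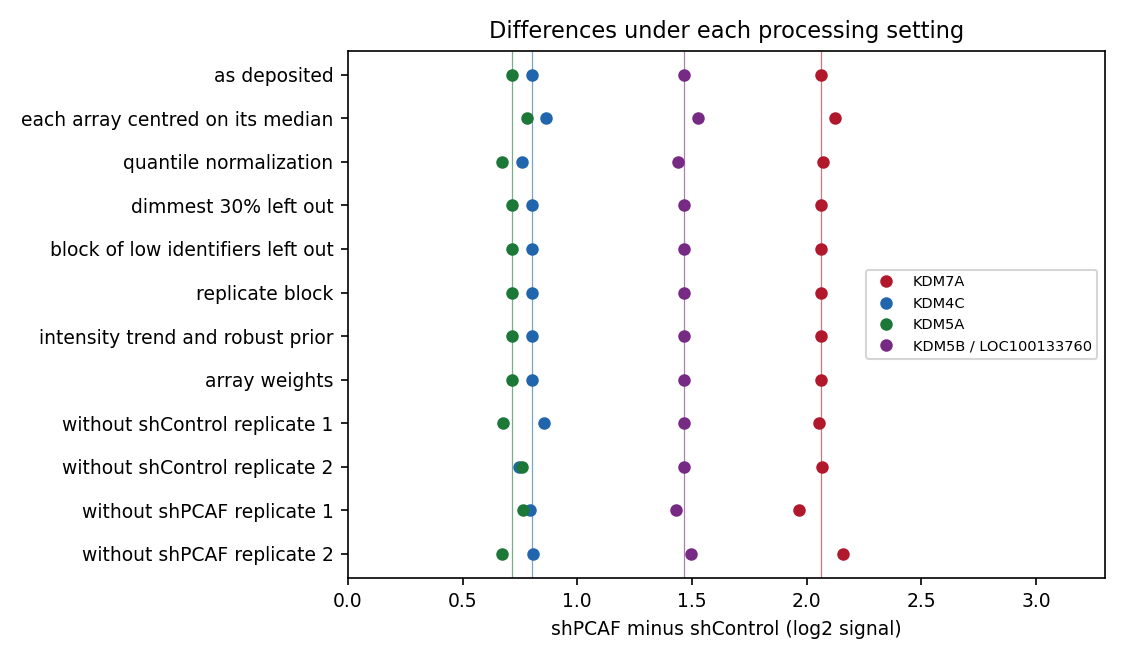
Log2 difference of shPCAF minus shControl (horizontal axis) of each demethylase probe set under each processing setting (rows), with thin lines at the values from the deposited signals. KDM7A stays between 1.97 and 2.16, and KDM4C and KDM5A change places without shControl replicate 2.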

How the data were processed

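RNA of HCT116 cells was hybridised to 4 single-colour arrays, grouped by their titles into 2 shControl and 2 shPCAF. The authors deposited log2 probe set signals for 33297 probe sets, a scale read here from their range (3.62 to 14.21). The submitters' processing notes name Affymetrix Expression Console and limma. How background and normalization were handled, and the annotation build, is not given in the sources used here. The authors' deposited table gives, per line, a score headed fold change and a p-value, with no test named. Older symbols were updated through RefSeq (GRCh38.p14), whose promoter windows were used without the bases after the start.

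The fit of shPCAF minus shControl used lmFit and eBayes of limma 3.58.1 (R 4.3.3) on the deposited values, with no covariate or filter. Benjamini-Hochberg adjustment covered every probe set, and the threshold was 0.05. The fit was run on simulated arrays with independent errors, which checks the code and not the spread of these replicates. Lists and figures were made in Python 3.11.15. The number of arrays limits the precision.

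The members, the gene lists and the tests were chosen with earlier results of these data known. Every member is named, with the 3 nearest profiles of each member that has a probe set of its own, and up to 4 genes per list. Alternatives were equal array medians, quantile normalization, leaving out the dimmest 30% of probe sets or the 4201 lowest identifiers, which the files do not describe, the replicate number as a block, array weights, a robust prior with an intensity trend, a threshold of 0.01, and leaving out each array.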

Additional observations from a re-analysis of the deposited data

How the results depend on the processing

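The log2 differences of the 4 demethylase probe sets kept their sign in all 44 values recomputed over 11 settings. Leaving out dim or low-identifier probe sets, the block, the weights and the trend cannot move these estimates by construction, and leaving out 1 of 2 arrays cannot move them past the SD between replicates. Of the 8 values after median centring or quantile normalization, which can, 3 did, those of KDM5B, KDM4C and KDM5A after median centring, at 1.53, 0.86 and 0.78. KDM7A ran from 1.97 to 2.16, KDM5B from 1.43 to 1.53, KDM4C from 0.75 to 0.86 and KDM5A from 0.67 to 0.78. At an adjusted p threshold of 0.01, 288 of the 33297 probe sets were called in place of 4294. Among the demethylase probe sets, 2 (KDM7A and KDM5B) were called in place of 4. The members were chosen on this contrast, so nothing is read from their counts in this section. With one array left out, the calls ranged from 0 to 2363 over all probe sets and from 0 to 4 among the demethylases. They were 0 without shControl replicate 1 (lowest adjusted p 0.0767 by limma) and without shControl replicate 2 (0.0839), with 6848 and 6849 at an unadjusted p below 0.05, and 1933 without shPCAF replicate 1 and 2363 without shPCAF replicate 2. Those fits have fewer arrays, and the lone array is assumed to vary like the other group. With the replicate number as a block, 4584 of the 33297 probe sets were called, all 4 demethylases among them. The labels do not say whether a replicate number marks a shared culture or day. Replicate 1 minus 2 correlated at 0.254 between the groups over probe sets, and 2 pairs do not settle whether the numbers pair the arrays. Whether a signal was above background was not measured.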
